A study of Homo sapiens with 12 samples.

Results

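The nuclear-encoded subunits of the mitochondrial respiratory chain were followed in ribosome footprints (RF) and total RNA of PANC-1 cells. They were chosen by name, as the genes whose symbols begin with NDUFA, NDUFB, NDUFC, NDUFS or NDUFV and a digit, are SDHA to SDHD, or begin with UQCR, COX4 to COX8 or ATP5. Of 93 such genes, 87 had at least 10 counts summed over the RF libraries and 10 over the total RNA libraries, among 13329 genes that passed this minimum and 20212 listed. The 87 fell into complex I (39), complex II (5), complex III (9), complex IV (14) and complex V (20). Of these, 78 were subunits, 4 were loci that read through or overlap a subunit gene, 3 were copies of a subunit gene and 2 were assembly or coupling factors.

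PANC-1 is an established human line from a pancreatic ductal carcinoma. One group of cultures received DMSO, the vehicle, and the other 50 nM rapamycin for 60 min, with 3 cultures in each. Each culture gave 1 RF library and 1 total RNA library, so that 12 libraries were compared. No source says whether the cultures were grown apart, so the p-values measure the spread between these samples, which may be technical.

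The RF libraries held 278835 to 1574723 counts and the total RNA libraries 78081241 to 94293744. The biological coefficient of variation in the fit was 54.9% in RF and 5.31% in total RNA. Levels of a gene are given as CPM, its count scaled to the size of its library after TMM. The smallest RF libraries were DMSO replicate 1 and rapamycin replicate 3. DMSO replicates 1 and 2 listed 16840 and 16858 genes in total RNA against 19751 to 19847 in the other 4 libraries. Of the epithelial markers, KRT8, KRT18 and KRT19 had total RNA of 1326 to 1765 FPKM over the 6 libraries, while KRT7 and EPCAM were at 12.02 FPKM or less. Of 10 counted markers of other pancreatic and stromal cells, PRSS1, INS and LUM had no RF count, and 3 passed the count minimum. The RF levels of the 10 summed to 105 to 133 CPM in DMSO and 116 to 133 in rapamycin. Those of the 4 mesenchymal markers (VIM, CDH2, ZEB1 and FN1) summed to 4088 to 4579 CPM and 3822 to 4667. The 5 epithelial markers summed to 5239 to 6556 and 5579 to 6097.

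The respiratory chain sits in the inner mitochondrial membrane. Complex I (NADH dehydrogenase) and complex II (succinate dehydrogenase) pass electrons to ubiquinone, complex III passes them to cytochrome c, and complex IV passes them to oxygen. Complex V, the ATP synthase, uses the resulting proton gradient to make ATP. A few subunits are encoded in mitochondrial DNA and translated inside the organelle, and the others are made by cytosolic ribosomes. Rapamycin inhibits mTORC1, a kinase that promotes cytosolic translation, above all of mRNAs that begin with a C and a run of pyrimidines (the TOP motif).

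The starts of the subunit genes were read from RefSeq (GRCh38.p14), because this motif is the sequence feature best known for its response to mTORC1. Of the 78 subunits, 65 had an entry. A TOP-like start, here a C at the annotated start followed by at least 4 bases that are each C or T, was found in 9 of the 65 (13.8%) and in 576 of 10660 genes of the table with an entry (5.40%). The windows below show the 10 bases before the start and 15 from the start on, with the pyrimidine run in capitals.
UQCRH (chr1:46303688-46303712, plus strand): cttacaagtcCTTCTTgatcctgaa
COX4I1 (chr16:85799685-85799709, plus strand): cggccttgctCTCTTCCggtcgcgg
COX7C (chr5:86617931-86617955, plus strand): tcccatctttCTTTTCagtccttgc
ATP5G2 (chr12:53676069-53676093, minus strand): cgctgctccgCCCCTCTCTgtcttc
ATP5O (chr21:33915790-33915814, minus strand): gcgcgtttctCTCTTCCCactcggg
The windows of 4 more subunits are shown because, like UQCRH, they are named below for an unadjusted p of translation efficiency under 0.05. These 4 have no such run at the annotated start, although NDUFB3 holds one that begins within 4 bases of it. They were picked by their values in these data, some lower and some higher, so they are no contrast for the motif.
NDUFB3 (chr2:201071991-201072015, plus strand): tgacaacctccgtttccggttggct
NDUFB8 (chr10:100529909-100529933, minus strand): ttcctccgtcacgtttggcccggct
NDUFA11 (chr19:5903776-5903800, minus strand): gcagcccgagaagtctcgcgatagc
NDUFS6 (chr5:1801397-1801421, plus strand): gtcaaaggccagcggcgcaaaatgg
The other 4 with a TOP-like start were NDUFC1, COX7A2L, ATP5E and ATP5L. The first start listed was read for each gene, although some had more, among them NDUFC1 (4), ATP5G2 (3), COX7A2L (2) and NDUFB8 (2). The start read may not be the one used in these cells.

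The translation efficiency (TE) of a gene is its RF level relative to its total RNA level. Whether rapamycin changed TE was asked in 1 edgeR model over all 12 libraries, with quasi-likelihood p-values adjusted by Benjamini-Hochberg over the 13329 genes. No subunit gene passed an adjusted p of 0.05 in TE, in RF or in total RNA. The smallest adjusted p among the 87 was 0.275 for TE. At this threshold 0% of all genes passed as well, in each of the 3 tests.

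The fitted TE of the 87 genes had a median log2 fold change of 0.03, beside -0.06 for all genes tested, with 41 lower and 46 higher in rapamycin (47.1% lower, beside 53.7% of all genes). At an unadjusted p under 0.05, 4 of the 87 were lower, beside 6.42% of all genes, and 2 were higher, beside 6.17%. The 4 include COX4I2, which passed the RF minimum only through its DMSO counts. Neither share exceeded the background. Together 12.6% of all genes passed this unadjusted threshold. The fit shares 1 dispersion between RF and total RNA, although their spreads differ. It also has no term for the culture, so it treats the RF and total RNA libraries of a culture as unpaired. When limma voom was given 1 variance for RF and another for total RNA, 6.74% of all genes and 1 of the 87, NDUFB8, passed. The unadjusted p-values of TE are therefore given here with the voom value beside them. The DESeq2 Wald test put 5 of the 87 lower at an adjusted p under 0.05, beside 4.37% of all genes, and 5 higher, beside 4.91%. It made many false calls on simulated counts whose library types differ in spread, and its calls are not taken as changes.

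The 3 rapamycin cultures lay below the 3 DMSO cultures in TE for 6 of the 87 genes, beside 6.19% of all genes, and above them for 7, beside 4.8%. An exact permutation test of 3 against 3 cultures cannot give a two-sided p below 0.1. In RF alone the median difference of the 87 was -0.02, with 44 fitted lower (50.6%, beside 48.7% of all genes). At an unadjusted p under 0.05, 3 were lower in RF (NDUFB3, UQCRH and COX4I2), beside 1.92% of all genes, and 0 higher, beside 1.76%. COX4I2 passed the RF minimum only through its DMSO counts. The counts lower and higher in RF were 0 and 1 without DMSO replicate 2, and 5 and 3 without DMSO replicate 1. They were 2 and 2 without DMSO replicate 3, and 1 and 0 without rapamycin replicate 1 or 2. Shares of all genes are not given for these settings, so the counts are not read as results. The cultures did not overlap in RF for 5 that were lower, beside 4.21%, and 5 that were higher, beside 5.24%.

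**Figure D1:**
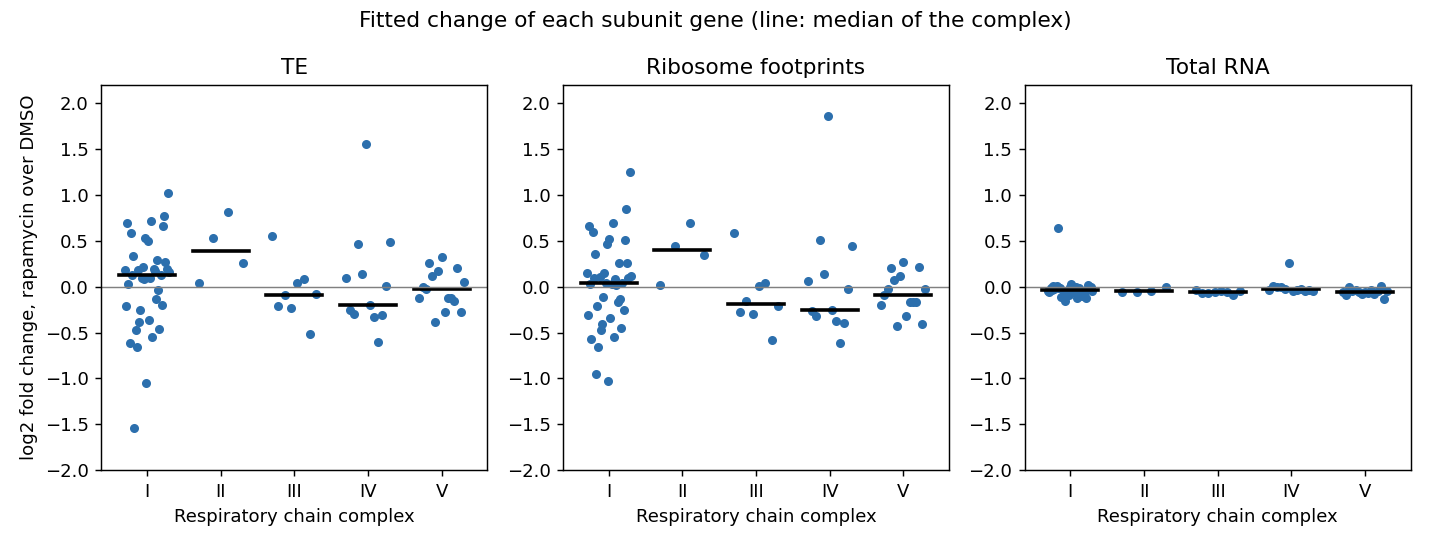
Log2 fold change (rapamycin over DMSO) of each subunit gene in TE, ribosome footprints and total RNA, by complex, with a line at the median of the complex. COX4I2 is drawn in no panel, but counts in the medians of complex IV. It lies outside the axis in TE and RF and within it in total RNA. The TE medians of complexes I to V are 0.13, 0.39, -0.09, -0.20 and -0.02, and most total RNA differences are smaller than those of TE and RF.

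Complex I takes electrons from NADH through a flavin and a chain of iron-sulfur clusters. Its 38 subunits had a median TE difference of 0.13 on the log2 scale, with 14 lower and 24 higher. NDUFB3, an accessory subunit of the membrane arm (GRCh37 chr2:201936156-201950473), had the smallest p of TE among the subunits. Its RF level was 98.4, 187 and 95.1 CPM in the DMSO cultures and 61.3, 56.9 and 69.9 in rapamycin. The rapamycin cultures all lay below the DMSO cultures, while total RNA was 45.0, 49.1 and 45.9 against 48.0, 43.7 and 48.3 CPM and overlapped. The log2 fold change of TE was -1.05 (SE 0.36), with an adjusted p of 0.275 by edgeR, unadjusted 0.012, and 0.0621 by voom.

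NDUFB8, another membrane arm subunit (chr10:102283497-102289757), had RF levels of 181, 204 and 235 CPM in DMSO and 148, 136 and 143 CPM in rapamycin. All rapamycin cultures were lower, and total RNA stayed at 107 to 110 CPM in all 6. Its TE differed by -0.55 (SE 0.21) on the log2 scale, with an adjusted p of 0.315 by edgeR, unadjusted 0.0209, and 0.0475 by voom. Of its exonic bases, 48.5% are shared with another counted gene.

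Higher TE was fitted for NDUFA11 and NDUFS6. NDUFA11, a membrane arm subunit (chr19:5891287-5904017), had 52.3, 51.5 and 43.5 RF CPM in DMSO and 72.1, 81.1 and 79.8 in rapamycin. These groups did not overlap, and its TE differed by 0.69 (SE 0.29), with an adjusted p of 0.343 by edgeR, unadjusted 0.0287, and 0.138 by voom. NDUFS6, which carries a zinc site of the peripheral arm (chr5:1801521-1816162), had 172, 111 and 115 RF CPM in DMSO and 218, 190 and 146 in rapamycin. Its groups overlapped, with a TE difference of 0.66 (SE 0.29), an adjusted p of 0.374 by edgeR, unadjusted 0.0408, and 0.130 by voom.

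**Figure D2:**
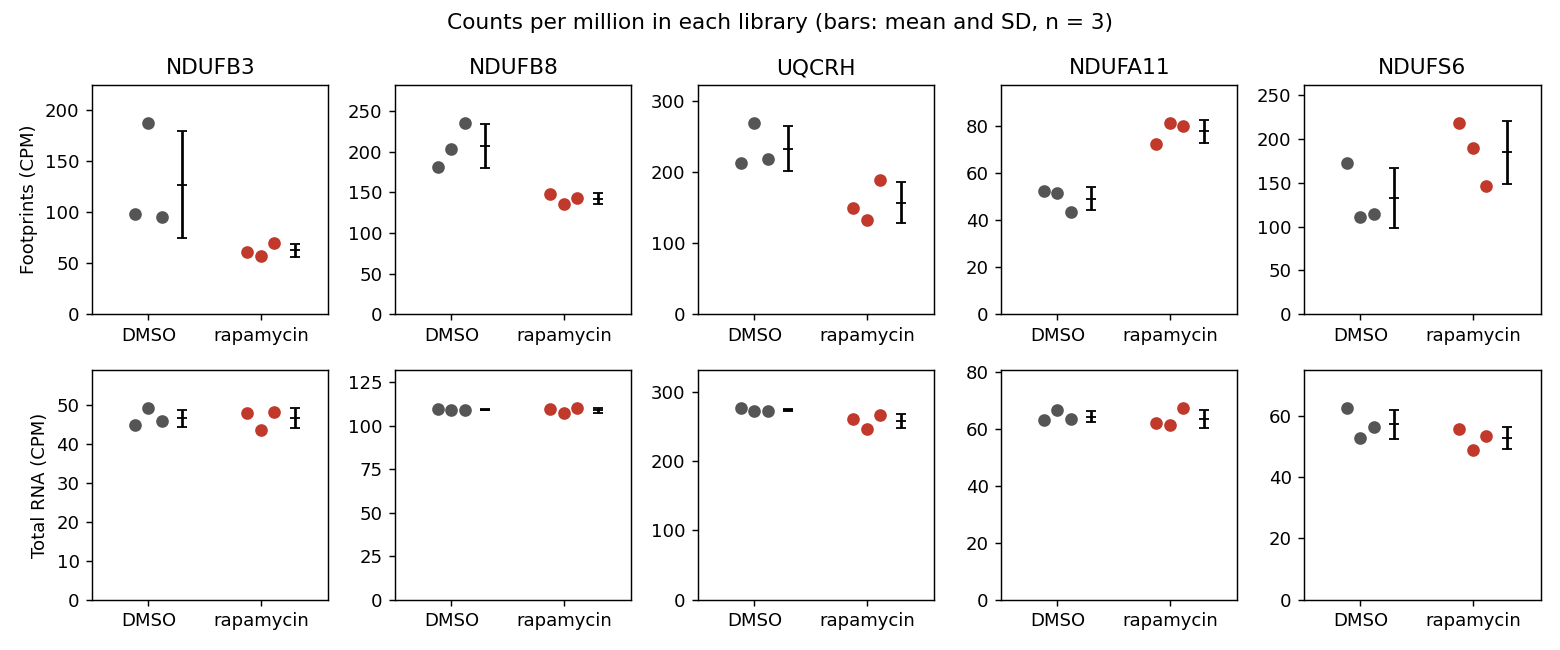
RF (upper row) and total RNA (lower row) in CPM in each of the 6 cultures for the 5 subunits with RF counts in every library and an unadjusted p of TE under 0.05. Points are cultures and bars the mean and SD of 3. RF levels of NDUFB3, NDUFB8 and UQCRH lie lower in rapamycin and that of NDUFA11 higher, without overlap, and those of NDUFS6 overlap.

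Of the core subunits of complex I, NDUFS7, which carries an iron-sulfur cluster, had 27.7, 65.3 and 44.2 RF CPM in DMSO and 82.1, 70.2 and 103 in rapamycin. Its groups did not overlap, and its TE differed by 0.77 (SE 0.39), with an adjusted p of 0.430 by edgeR, unadjusted 0.0658, and 0.0742 by voom. It was named after its values were seen. NDUFS1, the largest iron-sulfur subunit, had 64.6, 123 and 101 RF CPM in DMSO and 153, 99.2 and 96.5 in rapamycin, and its TE differed by 0.29 (SE 0.29). NDUFV1, which binds NADH and the flavin, had 135, 70.4 and 84.2 against 120, 105 and 76.5 CPM, with 0.20 (SE 0.30). For NDUFS1 and NDUFV1 the groups overlapped. NDUFA7 had the most RF counts of complex I, at 188, 363 and 420 CPM in DMSO and 374, 234 and 452 in rapamycin, but its total RNA was only 15.7 to 18.8 CPM. Its exons share 32.5% of their bases with other counted genes, among them RPS28, a ribosomal protein gene, so its footprints cannot be assigned to NDUFA7 alone.

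NDUFV2, another iron-sulfur subunit, was thinly covered, at RF counts of 0, 0 and 17 in the DMSO cultures and of 24, 5 and 2 after rapamycin. Of the related pair NDUFA4 and NDUFA4L2, NDUFA4, now known as a complex IV subunit and kept here by its symbol, had 243, 124 and 347 RF CPM in DMSO and 353, 250 and 316 in rapamycin. NDUFA4L2, known for its induction by hypoxia, had 14 RF counts over the DMSO and 7 over the rapamycin libraries. Depth did not allow a comparison for NDUFA4L2.

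Complex II oxidizes succinate and is wholly nuclear-encoded. All 4 subunits had a TE difference above 0, where 53.7% of all genes were below 0. Their medians were 0.39 in TE and 0.40 in RF, and none passed the test. SDHA, the flavoprotein, had 80.0, 89.2 and 79.5 RF CPM in DMSO and 36.5, 120 and 99.8 in rapamycin, with a TE difference of 0.04 (SE 0.42). The sign of this TE difference changed in several alternatives, with -0.17 by voom. SDHB, the iron-sulfur subunit, had 148, 84.2 and 156 against 191, 195 and 140 CPM, with 0.53 (SE 0.29). For both, the groups overlapped. SDHC, a membrane anchor, had 114, 33.9 and 66.6 against 168, 77.4 and 86.5 CPM, with 0.81 (SE 0.51). SDHD, the other anchor, had 15.4, 15.1 and 15.6 against 13.3, 20.6 and 26.6 CPM, with 0.26 (SE 0.39). The groups of both anchors overlapped as well. A second locus named SDHD, whose exonic bases are all shared with other counted genes, had 201 RF counts beside 81 for SDHD itself. The TE difference of this locus was -0.71, opposite in sign to the 4 subunits.

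Complex III had a median TE difference of -0.09 over its 8 subunits. UQCRH, the hinge protein beside cytochrome c1 (chr1:46769370-46782448), had 212, 269 and 218 RF CPM in DMSO and 149, 133 and 190 in rapamycin. Its total RNA was 273 to 276 CPM in DMSO and 247 to 266 in rapamycin, so both measures were lower without overlap. The TE difference was -0.51 (SE 0.21), with an adjusted p of 0.344 by edgeR, unadjusted 0.0292, and 0.171 by voom. Its start holds one of the TOP-like runs printed above. Of the 9 subunits with such a start 3 were fitted lower in TE, with a median of 0.05. A link between the run and TE was not tested.

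The other complex III subunits named here overlapped between groups. UQCRC1, a core subunit, had 89.2, 206 and 166 RF CPM in DMSO and 147, 145 and 83.2 in rapamycin. UQCRC2, the other core subunit and the one with the most RF counts, had 218, 173 and 268 against 193, 201 and 276. UQCRFS1, the Rieske iron-sulfur protein, had 114, 90.5 and 111 against 106, 96.8 and 123. Their TE differences were -0.24 (SE 0.34), 0.04 (SE 0.24) and 0.09 (SE 0.24).

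Complex IV had a median TE difference of -0.20 over its 13 subunits, with 7 lower and 6 higher. COX7A2, with the most RF counts, had 274, 341 and 318 RF CPM in DMSO and 278, 255 and 183 in rapamycin, and its TE differed by -0.33 (SE 0.22). COX4I1 had 181, 292 and 272 against 346, 231 and 200 CPM, with 0.09 (SE 0.28). COX5A had 194, 166 and 189 against 172, 156 and 126 CPM, with -0.26 (SE 0.23). RF levels of these 3 overlapped between the groups, while in TE the rapamycin cultures of COX7A2 all lay below the DMSO cultures.

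Several complex IV subunits come as ubiquitous and tissue-restricted forms, and the footprints lay mainly on the ubiquitous ones. COX6B1 had 206 to 316 RF CPM over the 6 libraries, and COX6B2, known from testis, 15 RF counts in all. COX6A1 had 31.4 to 140 CPM, while its muscle form COX6A2 had no RF count and COX7A1 had 1, both under the minimum. COX4I2, the alternative form of COX4I1, had RF counts of 0, 12 and 4 in the DMSO cultures and none in rapamycin. COX4I2 passed the RF minimum only through these DMSO counts, so no fold difference is drawn from them. With 21 total RNA counts over all libraries its fitted TE is not interpretable, although its unadjusted p was 0.0332 by edgeR and 0.149 by voom, with an adjusted p of 0.356.

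In the ATP synthase, 15 subunits had a median TE difference of -0.02, with 9 lower and 6 higher, and none had an unadjusted p under 0.05. ATP5B, the catalytic beta subunit and the subunit with the most footprints of the chain, had 806, 798 and 929 RF CPM in DMSO and 965, 754 and 655 in rapamycin. ATP5A1, the alpha subunit, had 461, 347 and 348 against 413, 299 and 289 CPM. ATP5C1, the gamma subunit of the central stalk, had 185, 91.7 and 156 against 117, 151 and 156 CPM. TE of ATP5A1 and ATP5C1 differed by -0.13 (SE 0.21) and -0.02 (SE 0.30), and that of ATP5B by less than 0.01 (SE 0.18).

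Because the assembled enzyme holds several copies of alpha, beta and c for each gamma, levels per length were set against gamma. In DMSO the footprint density of beta was 3.57 ± 1.24 times that of gamma, and of alpha 1.53 ± 0.45 times (SD, n = 3). The c subunit, summed over its 3 genes, was 9.23 ± 3.09 times gamma in footprints and 5.66 ± 0.29 times in total RNA FPKM. Epsilon and g were at 10.3 ± 3.35 and 10.7 ± 7.16 in DMSO footprints, and f and d at 3.65 ± 0.78 and 3.58 ± 1.76. Delta, OSCP, b, F6 and e lay between 1.06 and 2.23. A high footprint ratio was thus not particular to beta and c. In rapamycin the footprint ratios of beta and c were 3.27 ± 1.21 and 8.76 ± 0.67, and the groups overlapped.

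**Figure D3:**
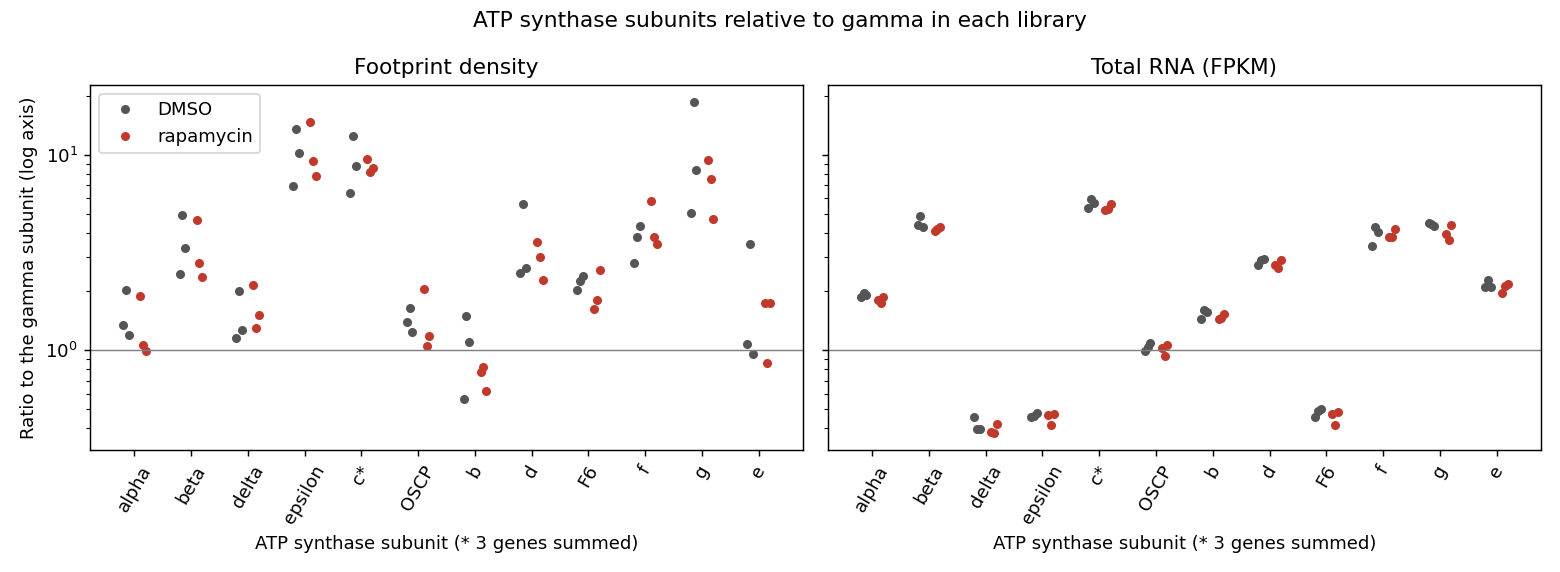
Ratio of each ATP synthase subunit to gamma in each library, as footprint density (CPM per kilobase of coding length, left) and total RNA FPKM (right), on log axes. The c subunit sums 3 genes. Footprint ratios scatter widely between cultures and total RNA ratios little.

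The c subunit is encoded by 3 genes with the same mature protein. In DMSO, ATP5G1 gave 39.3% ± 1.14, ATP5G2 33.7% ± 0.26 and ATP5G3 27.0% ± 1.32 of their summed total RNA FPKM (SD, n = 3). In rapamycin the shares were 39.1%, 34.0% and 26.8%. Their footprint shares were far more variable, with ATP5G3 at 43.6% ± 13.8 in DMSO and 34.7% ± 0.56 in rapamycin.

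In total RNA, 70 of the 87 genes were fitted lower in rapamycin (80.5%, beside 46.8% of all genes), by a small amount. Their median was -0.04 on the log2 scale, beside 0.01 for all genes. At an unadjusted p under 0.05, 8 were lower, beside 2.51% of all genes, and 0 higher, beside 3.32%. Among them were NDUFA9, NDUFB1, NDUFB2, NDUFB9, UQCRH, ATP5B and ATP5L, whose differences ran from -0.15 in NDUFB1 to -0.09. None passed the adjusted test (smallest adjusted p 0.766 by edgeR). The rapamycin cultures all lay below the DMSO cultures for 14 of the 87, beside 6.61% of all genes, and above them for 4, beside 8.22%. Without rapamycin replicate 2, 56 of the 87 were fitted lower. The share of all genes fitted lower is not given for that setting, so this count is not read as a result.

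Summed over the 78 subunits, total RNA was 9395, 9623 and 9428 CPM in DMSO and 9276, 8910 and 9308 in rapamycin. The rapamycin libraries all lay lower, with replicate 2 the lowest. The summed RF level was 10825, 11288 and 12128 CPM against 11967, 10857 and 10416 and overlapped. Of the single complexes, only complex III had RF sums that did not overlap, at 1172, 1118 and 1246 CPM in DMSO and 1050, 1019 and 1048 in rapamycin. This sum includes UQCRH, whose own RF levels did not overlap, and the sum without it was not computed. Of all single genes 4.21% lay lower in RF without overlap. With 3 against 3 cultures such a separation cannot give a two-sided permutation p below 0.1, so it is not read as a change of the complex.

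**Figure D4:**
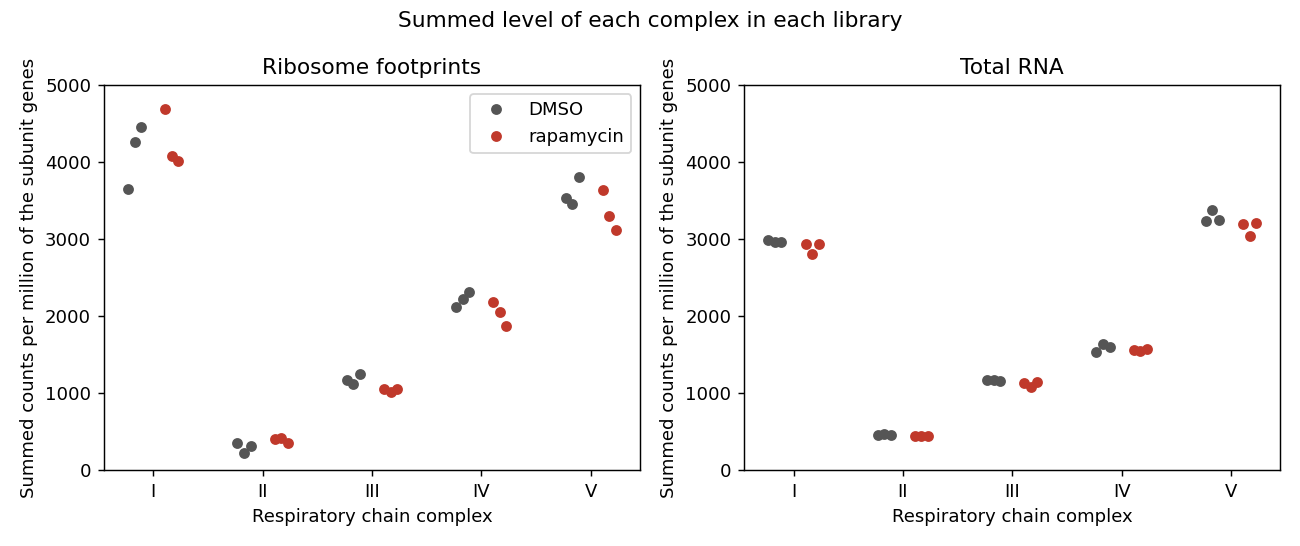
Summed CPM of the subunit genes of each complex in each library, for footprints (left) and total RNA (right). DMSO is grey and rapamycin red. Complexes I and V hold the most, and the treatments lie close together.

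Levels differed far more between subunits than between treatments. In DMSO, COX7C, ATP5B and ATP5L had the highest total RNA, at 546, 489 and 479 FPKM, and NDUFV3 the lowest of the ubiquitous subunits, at 14.9. Footprint density was highest in COX7C, ATP5E and ATP5L, at 1539, 1538 and 1474 CPM per kilobase, which lay within their spread. Across the 78 genes footprint density rose with FPKM (Spearman's rho 0.61) and fell with coding length (rho -0.59), while the TE difference had a rho of -0.01 with coding length. These are descriptions across genes, which share libraries and are not independent. The coding regions were short, with a median of 417 nt beside 1434 nt for all genes tested.

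**Figure D5:**
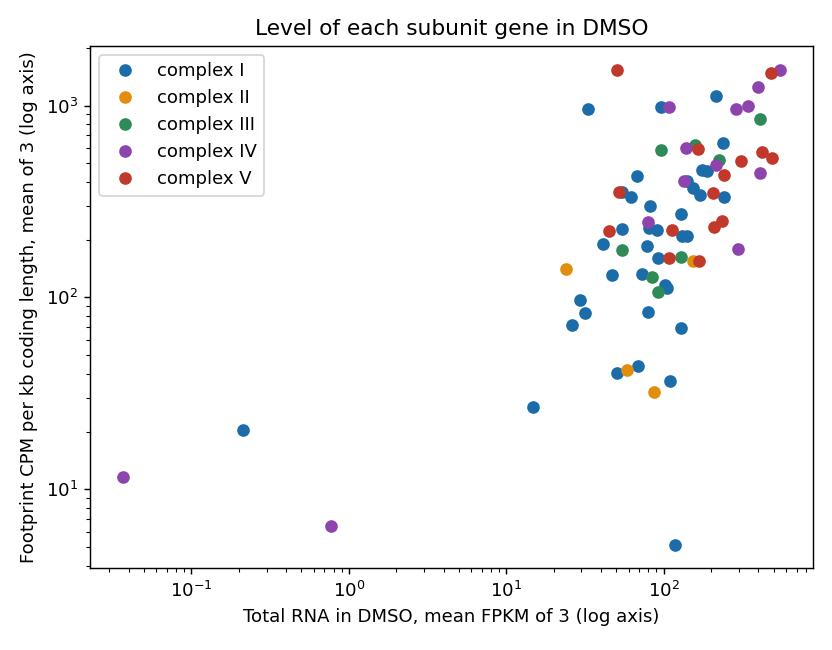
Footprint CPM per kilobase of coding length against total RNA FPKM of each subunit gene in DMSO, means of 3 libraries, on log axes, coloured by complex. The 3 genes at the far left are the tissue-restricted COX4I2, NDUFA4L2 and COX6B2.

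The genes with a TOP-like start had a median TE difference of 0.05 on the log2 scale, with 3 of 9 lower. The 56 without it had 0.09, with 23 lower. When the run could begin within 4 bases of the annotated start, 16 of 65 subunits held it (24.6%, beside 16.2% of genes), with a median of -0.06 and 8 of 16 lower, and the 49 others had 0.13, with 18 lower. The sign of the first median thus depended on where the run was allowed to begin, and neither difference was tested. Of the other motifs searched on both strands from 250 bases before to 50 after the start, the ETS core CCGGAAG was found in 19 of 65 (29.2%, beside 18.6% of genes) and the NRF1 site, GCGCA joined to TGCGC, in 4 (6.15%, beside 2.28%). Runs such as that of COX4I1 can overlap the ETS core on the other strand. A match is a description of these letters and not a site.

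The genes beside the chain also showed no adjusted call. The 13 subunits encoded in mitochondrial DNA had TE differences below 0 in 13 of 13 (beside 53.7% of all genes), with a median of -0.41, and 0 passed at an unadjusted p of 0.05. In RF 11 of 13 were lower (beside 48.7% of all genes), with a median of -0.22. At an unadjusted p under 0.05, 2 were lower, beside 1.92% of all genes. Their summed RF level was 9072, 11794 and 9110 CPM in DMSO and 10346, 8516 and 6900 in rapamycin, and overlapped. Their summed total RNA was 8507, 9422 and 8592 CPM in DMSO and 8371, 10511 and 8399 in rapamycin, with rapamycin replicate 2 apart from the others. Without that culture 10 of 13 were lower in TE, with a median of -0.15, and by voom the median was -0.19. Without DMSO replicate 2 the TE median was -0.17. Without rapamycin replicate 1 it was -0.64, with 5 lower at an unadjusted p, where 9.65% of all genes passed in either direction.

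The assembly factors tested numbered 13, 2, 5, 22 and 3 for complexes I to V. Of them 5 had an unadjusted p under 0.05 in TE, where 12.6% of all genes passed. Of 13 factors for complex I, FOXRED1 was fitted higher (log2 1.18, adjusted p 0.243 by edgeR, unadjusted 0.00725, voom 0.0620). Of 22 for complex IV, these were COX11 (-0.69, voom p 0.196) and PET117 (3.30 from 11 RF counts, voom p 0.185). SDHAF1 for complex II (2.46 from 12 RF counts, voom p 0.144) and ATPAF2 for complex V (1.55, voom p 0.0764) were the others. None of these 5 passed by voom.

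Of 11 regulators tested, NRF1, a transcription factor of respiratory genes, had a TE difference of -1.52 (SE 0.39), with an adjusted p of 0.231 by edgeR and an unadjusted p of 0.0240 by voom. ESRRA, a nuclear receptor of the same program, had 1.94 (SE 0.61), with an adjusted p of 0.238 by edgeR and an unadjusted p of 0.0270 by voom. Their fitted differences had opposite signs, and neither passed the adjusted test. Complex III assembly factors and the 6 core genes outside the naming rule, among them CYC1 and CYCS, held none at an unadjusted p under 0.05.

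Some rows with a subunit's name are not that subunit. ATP5EP2 and COX6A1P2 are processed pseudogenes, and ATP5L2 is a copy of ATP5L. ATP5EP2 had 257 RF counts on 251 total RNA counts, and ATP5L2 167 on 111, while ATP5L had far more of both. Only uniquely aligned reads were counted, so reads common to a gene and its copy may be lost or placed on either. The second loci named NDUFA7, SDHD and UQCR11 and the read-through ATP5J2-PTCD1 share 91.7% to 100% of their exonic bases with other counted genes. ATP5S and ATP5SL are assembly or coupling factors, with TE differences of 0.01 (SE 0.57) and 0.12 (SE 0.26). None of these 9 reached an unadjusted p of 0.05 in TE.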

How the data were processed

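PANC-1 cultures were sequenced as ribosome footprints and as total RNA. Per the labels and methods, the authors aligned reads to GRCh37 with HISAT2, kept unique alignments and counted exonic reads of protein-coding genes with featureCounts. The deposited read counts per gene were used as they stand. The deposited FPKM came from Cufflinks 2.2.1 (Cuffnorm) and served for levels per length. Columns of the authors' own comparison (TE, fold change, p) were not used.

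The members and gene lists were chosen with earlier results of these data known. Counts were scaled by TMM within each library type and tested with edgeR 4.0.16 (robust quasi-likelihood, Benjamini-Hochberg over 13329 genes) in R 4.3.3, for TE as the interaction of library type and treatment. On simulated counts in which each library type had its own spread, this joint fit gave too many small p-values for unchanged genes and made false calls, the DESeq2 1.42.0 Wald test did so more strongly, and limma 3.58.1 voom with a variance per type came close to the nominal rate. The planned test was kept, and TE p-values are read against the share of all genes and the voom value. Coding lengths are those of the GENCODE canonical transcript on GRCh37, in place of planned protein lengths. Named were members with an adjusted p under 0.05 in any test or an unadjusted one in TE. The member of each complex with the most RF counts, all SDH genes, fixed core subunits, paralogue sets and rows that are not subunits were named too. Of the lists of genes beside the chain, those with an unadjusted p under 0.05 in TE were named. Cell type markers were not named by this rule. Of them EPCAM had a TE difference of -2.74 from 53 RF counts, with an adjusted p of 0.231 by edgeR, unadjusted 0.00427, and 0.0468 by voom. Members named for total RNA or for levels were chosen after their values were seen. The values of 1 member are not reported here. Alternatives were other scalings, count minimums of 1 and 60, a replicate block, leaving out each culture, DESeq2, voom, and limma-trend on log2(FPKM + 1). Intervals between replicates of total RNA reflect 78081241 to 94293744 counts a library.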

Additional observations from a re-analysis of the deposited data

How the results depend on the processing

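No member passed an adjusted p of 0.05 in TE, RF or total RNA under any alternative run (0 to 0 when each culture was left out), except TE by the DESeq2 Wald test, which called 10 of the 87 (5 lower, 5 higher). That test called 1236 of all genes, 4.37% lower and 4.91% higher, and made many false calls on simulated counts with unequal spreads, so these 10 are not reported as changes. Voom with a variance per library type called 0. Leaving out single cultures moved the median TE difference from -0.07 to 0.10 and the count of members higher in TE at an unadjusted p from 1 to 7, the highest without DMSO replicate 3. Without that culture 12 of the 87 passed in TE in either direction, beside 22.8% of all genes. Over these settings 9.06% to 22.8% of all genes passed in TE. Members lower in TE at an unadjusted p ranged from 2 to 5, and in RF 0 to 5 were lower and 0 to 3 higher. In total RNA, members fitted lower ranged from 56 (without rapamycin replicate 2) to 74. Shares of all genes by direction are not given for these settings, so these ranges are not read as results. Without the culture of the smallest RF library of each treatment, an alternative added after seeing the data, 0 members passed. The replicate numbers did not pair the samples. Correlations of same-numbered deviations were -0.05, -0.05 and -0.09 in RF and -0.10, -0.11 and -0.20 in total RNA. Across numbers in total RNA, DMSO replicates 1 and 2 correlated with rapamycin replicate 3 at 0.18 and 0.17. DMSO replicate 3 correlated with rapamycin replicates 1 and 2 at 0.12 and 0.13. All other pairs in total RNA were negative, and what this pattern reflects was not tested. With the replicate block 0 members passed in each test. The RF difference of COX6A1 changed sign without rapamycin replicate 3, with -0.00768 the lowest and 0.798 the highest value when single cultures were dropped. Total RNA of COX6B2 changed sign in limma-trend (-0.0182, with pseudocount 0.1 -0.0365, with no minimum FPKM -0.0182). The cause was not tested in either case. Of 29 named members whose TE difference was under its standard error, 23 changed sign in some alternative, and of the 16 others 0 did. The median spread of a subunit between RF libraries in DMSO was 25.8%, and counting error alone would give 11.7%.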
